A study of Mus musculus with 21 samples.

Results

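Collagen, matrix and fibroblast genes were followed in 2 mouse tumor models under dietary methionine restriction (MR). The set holds 40 genes, taken by symbol from the tables of both models, of 14422 genes listed in both. All 40 were listed in each table, and all 40 passed the filter on low counts in every comparison. The rule used gene names and no measured value, but the members were chosen with earlier results of these data known. RNA sequencing had been done on tumors of mice given a control chow diet or an MR diet. MC38 is a mouse colon carcinoma line and gave 4 control and 4 MR libraries. BPD6 is a mouse melanoma line and gave 4 control and 3 MR libraries. The labels give no strain, age, sex, time on diet or methionine content, and do not say whether each library is a separate animal, so p-values here measure the spread between libraries, which may be partly technical. They call the material tumor cells, while the series' design calls it tumors, and neither names a sort. Each model is 1 cell line.

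Fibrillar collagens are secreted as procollagen triple helices, trimmed by proteases and crosslinked by lysyl oxidases into the fibers that give connective tissue its strength. Collagen IV forms a sheet in basement membranes, and collagen VI a beaded network around cells. Glycoproteins and proteoglycans such as fibronectin, SPARC and decorin bind these collagens and the integrins of cells, and metalloproteinases with their TIMP inhibitors remodel them. In tumors activated fibroblasts make most fibrillar collagen, but carcinoma and melanoma cells can express matrix genes as well. RNA of a whole tumor does not show which cells a transcript came from, and fewer cells of a type and less RNA per cell cannot be told apart.

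Counts per library totalled 16275794 to 24129588 in MC38 and 18346332 to 20836084 in BPD6. Levels are given as CPM, counts scaled to the size of the library, on 1 scale for all 15 libraries. Markers of other cell types differed between libraries of the same group. Keratinocyte markers summed to 499.6 CPM in BPD6 control 3 and 1786 CPM in BPD6 MR 1, against 3.66 to 5.93 CPM in the other BPD6 libraries. Skeletal muscle markers summed to 7256 CPM in BPD6 control 4, 5214 in BPD6 MR 2, 2235 in MC38 control 3 and 2738 in MC38 MR 2. Markers of epithelial cells in MC38 and of melanocytes in BPD6 were mostly low or not listed. Epcam, Krt8 and Krt18, epithelial genes, averaged 1.25, 1.15 and 0.78 CPM in MC38 control tumors. Of 10 melanocyte markers, Mitf, Sox10 and Pmel were listed, at 20.5, 1.90 and 1.26 CPM in BPD6 control tumors, and Tyr, Tyrp1, Dct and Mlana are among the 7 with no row in either table.

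Most of the matrix genes were higher in BPD6 than in MC38 tumors. On the control diet 36 of 40 were higher in BPD6 and 1 was lower (edgeR's quasi-likelihood test, Benjamini-Hochberg adjusted p under 0.05 over 14257 genes). Of all genes tested 63.3% passed, 32.6% higher in BPD6 and 30.7% lower. At an unadjusted p under 0.05 there were 38 of 40, against 66.6% of all genes. The median log2 fold change of BPD6 over MC38 was 2.09 for the 40 genes and 0.035 for all genes. Summed over the 40 genes, control tumors held 8556 to 9980.4 CPM in MC38 and 24237 to 41759.9 CPM in BPD6. Control libraries of the 2 models did not overlap for 35 of the 40 genes, 34 higher in BPD6, where 59.8% of all genes did not overlap in either direction. Each model has its own table and its own libraries, so model, table and library batch cannot be told apart. Different transcripts are named in the 2 tables for Col4a1, Col5a3, Fn1, Postn, Tnc, Thbs1, Serpinh1, Timp1 and Pdgfra. Some other cell markers were higher in BPD6 too, while no fat cell, skeletal muscle or keratinocyte marker passed in either direction. Of the T cell and the epithelial markers, 1 of 7 each was lower. Of the melanocyte markers 1 of 3 tested was higher, and of the pan-leukocyte markers 1 of 5. Between MC38 and BPD6 control tumors the summed level of endothelial markers was 170.1 to 239 against 469 to 601 CPM (5 of 11 higher in BPD6, 1 lower), that of macrophage markers 635 to 1231 against 1617 to 2206 CPM (8 of 12 higher), and that of pericyte and smooth muscle markers 51.7 to 195 against 407 to 992 CPM (3 of 9 higher, 1 lower). Pericyte and smooth muscle markers were higher for a share near the 32.6% of all genes. Single genes carried much of the endothelial and pericyte sums. Eng averaged 43.3 against 318 CPM, while the endothelial genes Pecam1 and Cdh5 averaged 43.2 against 45.8 CPM and 67.5 against 53.2 CPM. Of the 11 endothelial markers 10 had a log2 fold change above 0 and 1, Cdh5, below, with a median of 0.69. Of all genes 7345 of 14257 were above 0. At lower levels than Eng, Kdr averaged 5.65 against 21.2 CPM and Vwf 4.30 against 16.2 CPM. Within the pericyte and smooth muscle list Cspg4, a proteoglycan of pericytes and of melanoma cells, averaged 5.95 against 379.8 CPM. The pericyte gene Rgs5 averaged 14.5 against 0.83 CPM and was the 1 of 9 below 0, with 8 above. Des, which is on the skeletal muscle list too, averaged 31.3 against 186 CPM. It reached 99.1 CPM in its highest MC38 control library and 512 CPM in its highest BPD6 control library. The pericyte and smooth muscle sum thus also holds muscle RNA. None of the endothelial, macrophage and pericyte lists had a marker at 0 in every library of a group. The part of these cells in the result was not tested.

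**Figure D1:**
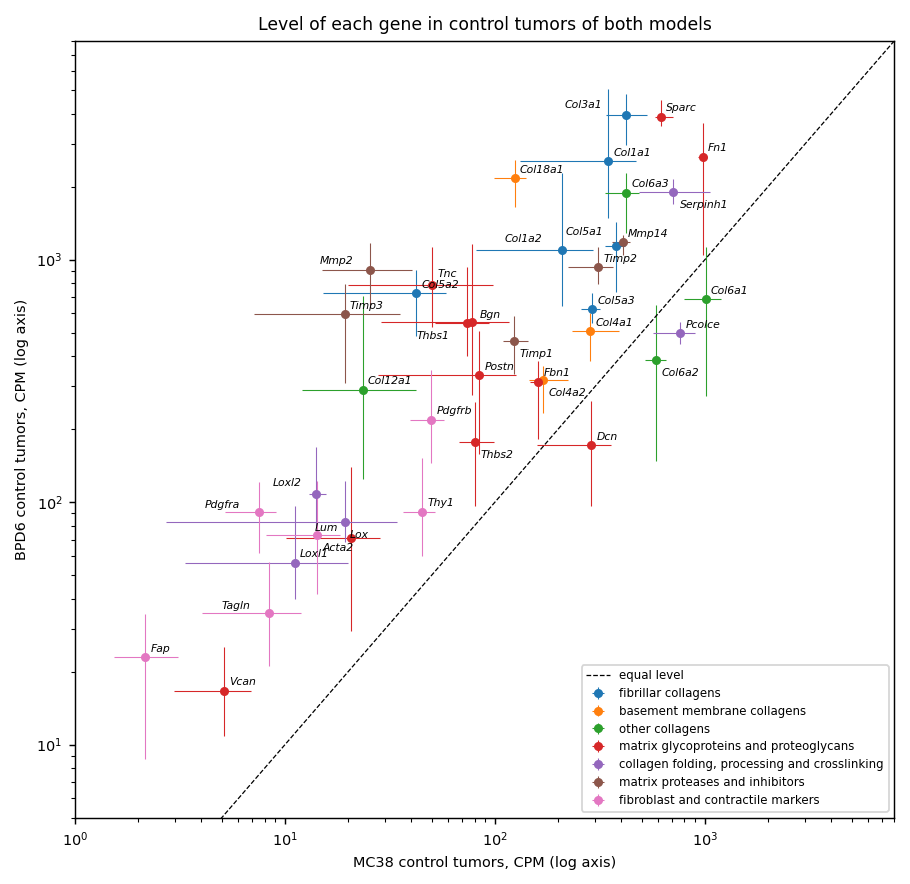
Mean level of each of the 40 genes in MC38 control tumors (x axis, CPM, log scale) against BPD6 control tumors (y axis, CPM, log scale), 4 libraries each; bars run from the lowest to the highest library, colors mark roles, and the dashed line marks equal levels. The 36 genes above the line include Mmp2 and Timp3 at the greatest distance, and Col6a1, Col6a2, Dcn and Pcolce lie below it.

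Methionine restriction moved none of these genes past the test. In MC38 0 of 40 passed, as did 0 of all 14034 genes tested (0.0%). At an unadjusted p under 0.05 there were 3 of 40 (Timp1, Mmp14 and Col6a2), where 14.1% of all genes reached it. DESeq2 and limma-voom called 0 of the 40 as well, although DESeq2 called 396 genes in all. In MC38 the authors' deposited table gave an adjusted p under 0.05 to 353 genes, none of them among the 40, and 4 of the 40 had an unadjusted p under 0.05. In BPD6 0 of 40 passed, with 0 of 13978 genes in all (0.0%), and 0 of 40 reached an unadjusted p under 0.05 against 1.85% of all genes. DESeq2 and limma-voom called 0 of the 40 in BPD6 too. No gene of the 40 had diet groups without overlap in either model, where 8.61% of all genes had in MC38 and 3.16% in BPD6. The median log2 fold change of MR over control was 0.066 in MC38 (all genes 0.024), with 24 of the 40 above 0, and 0.054 in BPD6 (all genes -0.0071), with 27 above 0. Over all genes tested, 7518 of 14034 were above 0 in MC38 and 6761 of 13978 in BPD6.

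The design left changes of moderate size undetectable for many of these genes. The 95% interval of the diet effect lay within 1 log2 unit of 0 on both sides for 21 of the 40 genes in MC38 and for 23 in BPD6. It was narrowest for Fbn1 in MC38, at -0.32 to 0.15, and for Timp2 in BPD6, at -0.19 to 0.40. The widest were those of Lox in MC38, -1.86 to 0.87, and of Col12a1 in BPD6, -1.42 to 1.72. These 4 genes were named after their values were seen, as the ends of the range. The responses of the 2 models were compared directly by the interaction of model and diet. It passed for 0 of 40 genes and for 0 of all 14257 (0.0%), and 0 of 40 reached an unadjusted p under 0.05 against 5.2% of all genes. DESeq2 and limma-voom called 0 of the 40 in that comparison. The lowest adjusted p was that of Mmp14, whose log2 fold change under MR differed by -0.25 ± 0.17 (BPD6 minus MC38, adjusted p = 0.86).

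**Figure D2:**
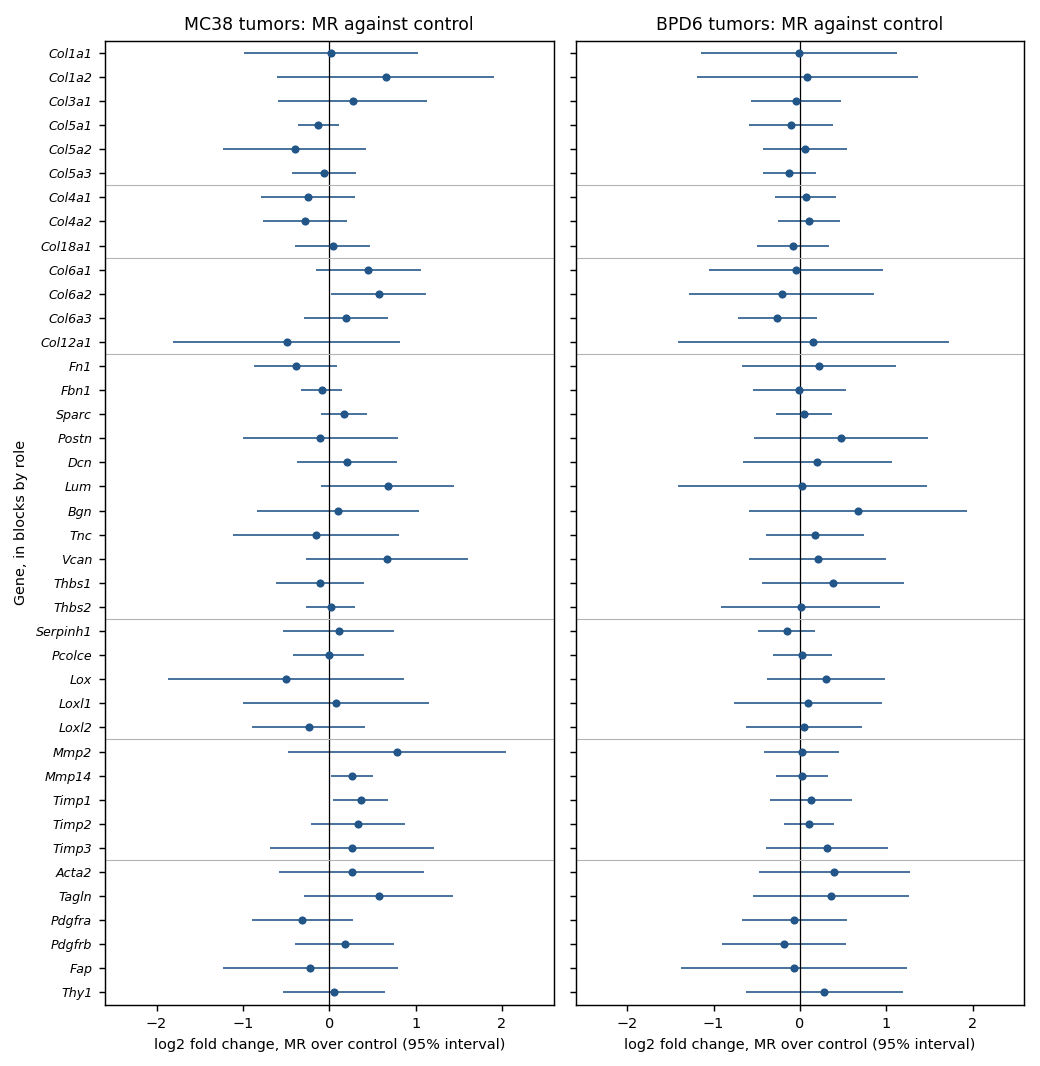
Log2 fold change of MR over control (x axis) for each of the 40 genes (y axis, in blocks by role) in MC38 (left, 4 against 4 libraries) and BPD6 tumors (right, 4 against 3); points are edgeR estimates and bars their 95% intervals. Points run from -0.50 to 0.78 in MC38 and from -0.26 to 0.67 in BPD6, and no gene passed the adjusted test in either panel.

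Of the fibrillar collagens, all 6 were higher in BPD6 than in MC38 and none passed the test for diet. Col1a1 encodes the main chain of collagen I, the collagen of skin, bone and scar, and lies at chr11:94936224-94953042 (GRCm38). It measured 132, 315, 468 and 466 CPM in the MC38 control tumors and 154, 291, 585 and 373 under MR. In BPD6 the control tumors had 1488, 1818, 5065 and 1826 CPM and the MR tumors 3797, 2236 and 1487. Control library 1 and MR library 1 were low in MC38, and control 3 and MR 1 were high in BPD6, so that the diets overlapped widely while the models did not overlap at all. The control mean was 345 ± 159 CPM in MC38 (SD, n = 4) and 2549 ± 1685 CPM in BPD6 (SD, n = 4), 7.38-fold (log2 2.88 ± 0.53, adjusted p = 0.000268). The diet effect was 0.024 ± 0.45, adjusted p = 0.983 in MC38 and -0.012 ± 0.49, adjusted p = 0.9997 in BPD6.

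Col1a2, the partner chain of collagen I (chr6:4505618-4541543), had 81.3, 177, 283 and 292 CPM in MC38 control tumors and 111, 715, 274 and 210.4 under MR, with MR 2 far above the rest. BPD6 tumors had 644, 683, 2283 and 788 CPM on control and 1947, 880.1 and 635 on MR diet. Here again BPD6 control 3 and MR 1 stood above the others. The model difference was 5.28-fold (log2 2.40 ± 0.62, adjusted p = 0.00379) and the diet effect in MC38 was 0.65 ± 0.56, adjusted p = 0.594. Col3a1 encodes collagen III, which forms fibers with collagen I in soft tissue (chr1:45311538-45349706). Its MC38 values were 338, 424, 390.2 and 529 CPM on control and 176, 639.7, 807 and 400.4 on MR diet, and its BPD6 values 2973, 3874, 4842 and 4079 CPM on control and 4510.4, 4241 and 2661 CPM on MR diet. The MC38 MR libraries spread on both sides of the controls, and every BPD6 library lay above every MC38 library. It was 9.38-fold higher in BPD6 control tumors (log2 3.23 ± 0.37, adjusted p = 3.70e-06).

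Collagen V starts and limits the width of collagen I fibers. Its genes Col5a1, Col5a2 and Col5a3 were 3.01-, 17.2- and 2.15-fold higher in BPD6 control tumors (adjusted p = 1.03e-06, 2.78e-07 and 3.48e-05). Col5a2 ranged from 15.2 to 58.5 CPM in MC38 and 486 to 906 CPM in BPD6 control tumors, while Col5a1 ranged from 334 to 415 and 738 to 1426 CPM. Col5a1 was abundant in MC38 tumors, in which Col5a2 was low.

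Of the basement membrane collagens, Col4a1, Col4a2 and Col18a1 were all higher in BPD6. Col4a1 and Col4a2 encode the chains of the collagen IV sheet and are known as a head-to-head pair that share 1 promoter region. They lie at chr8:11198423-11312889 and chr8:11312805-11449287 on opposite strands, and these RefSeq gene spans overlap by 85 bases, the span of Col4a1 reaching past the start that its promoter window uses, so reads from that overlap cannot be assigned without strand, which the labels do not mention. RefSeq's promoter windows (GRCm38.p6) run from 250 bases before to 50 bases after each start, at chr8:11312777-11313076 (minus strand) for Col4a1 and chr8:11312555-11312854 (plus strand) for Col4a2. The pair kept a nearly fixed ratio across libraries, and the part of the promoter in that ratio was not tested. Both windows are shown with the 78 bases they share in capitals, each read 5′ to 3′ on its own gene's strand.
Col4a1: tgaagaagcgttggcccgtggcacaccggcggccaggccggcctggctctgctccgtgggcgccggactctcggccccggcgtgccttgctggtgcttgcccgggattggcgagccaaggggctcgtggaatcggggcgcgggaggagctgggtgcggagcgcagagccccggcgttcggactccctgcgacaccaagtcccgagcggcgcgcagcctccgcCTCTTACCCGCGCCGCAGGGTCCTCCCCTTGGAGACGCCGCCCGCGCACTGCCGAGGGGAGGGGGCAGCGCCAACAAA
Col4a2: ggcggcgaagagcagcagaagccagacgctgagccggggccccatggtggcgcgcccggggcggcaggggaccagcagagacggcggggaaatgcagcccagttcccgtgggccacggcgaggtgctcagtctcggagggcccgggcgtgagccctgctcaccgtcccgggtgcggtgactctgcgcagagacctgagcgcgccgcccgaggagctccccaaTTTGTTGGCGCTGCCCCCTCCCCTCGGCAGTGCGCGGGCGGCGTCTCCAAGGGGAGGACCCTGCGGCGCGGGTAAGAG

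The windows were searched on both strands for CCAAT, for the GC box core GGGCGG and for TATAAA, which do not overlap in sequence. CCAAT was found in both windows and never wholly inside the shared stretch. In the Col4a2 window its only match crosses the edge, with 1 of its 5 bases inside. GGGCGG was found in both windows, with a match inside the shared stretch. TATAAA was found in neither. Of all 32851 RefSeq windows of this length, 37.4% held CCAAT, 35.7% GGGCGG and 13.6% TATAAA. Among the 25 of the 40 genes with a window, 11, 17 and 4 held them. These matches describe the letters only.

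Col4a1 measured 255, 259, 232 and 391 CPM in MC38 control and 137, 281, 259 and 282 in MC38 MR tumors, and 382, 605, 494 and 543 CPM on control and 553, 512 and 519 CPM on MR diet in BPD6. MC38 control 4 was the highest and MR 1 the lowest of the MC38 libraries, and the control groups of the models overlapped, since MC38 control 4 lay above BPD6 control 1. The model difference was the smallest of the collagens that passed, 1.78-fold (log2 0.83 ± 0.22, adjusted p = 0.00434), with different transcripts named in the 2 tables. The diet effect was -0.24 ± 0.24, adjusted p = 0.648 in MC38 and 0.066 ± 0.15, adjusted p = 0.9997 in BPD6. Col4a2 followed it, at 146 to 222 CPM in MC38 and 233 to 366 CPM in BPD6 control tumors. Col18a1, the precursor of endostatin, was 17.5-fold higher in BPD6 control tumors, at 1655 to 2566 against 99.1 to 141 CPM (log2 4.13 ± 0.22, adjusted p = 2.78e-09).

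Collagen VI was the exception among the collagens. Col6a1 and Col6a2, neighbors on chromosome 10, had lower means in BPD6 without passing the test (log2 -0.56 ± 0.37, adjusted p = 0.206, and -0.60 ± 0.37, adjusted p = 0.172), while the third chain, Col6a3, was 4.49-fold higher (log2 2.17 ± 0.23, adjusted p = 1.31e-06). Col6a2 had 629, 554, 521 and 650.3 CPM in MC38 control and 474, 1209.8, 778 and 1029.7 CPM in MC38 MR tumors. MR 1 was the lowest of the 8 libraries and the other 3 MR libraries were the highest, so the groups overlapped through 1 library. The diet effect was 0.57 ± 0.25, adjusted p = 0.34 in MC38. In BPD6 its values were 147, 281, 471 and 649 CPM on control and 440.4, 241 and 315 on MR diet, and the control libraries spanned 4.4-fold. Without BPD6 control 4, the highest of them, Col6a1 and Col6a2 passed the test as lower in BPD6.

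Col6a3 measured 430.1, 336, 488 and 429 CPM in MC38 control and 308, 417, 602 and 599.8 in MC38 MR tumors, then 1284, 1990.0, 1999 and 2277 in BPD6 control and 1356, 1846 and 1518 in BPD6 MR tumors. It had the lowest p of the 40 for diet in BPD6, and it did not pass there (-0.26 ± 0.20, adjusted p = 0.9997). Col12a1, a collagen on the surface of fibrils, was 12.4-fold higher in BPD6 (log2 3.64 ± 0.73, adjusted p = 0.000561) and was among the most variable, at 12 to 42.2 CPM in MC38 and 125 to 710.2 CPM in BPD6 control tumors.

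Partner chains of 1 collagen molecule were compared within each library as the ratio of CPM per kilobase of transcript. Col4a1 over Col4a2 ran from 1.5 to 1.77 in the 8 MC38 libraries, in which the levels of the 2 genes spanned 2.85- and 2.65-fold. In the 7 BPD6 libraries it ran from 1.49 to 1.64. Col6a1 over Col6a2 ran from 1.34 to 1.77 and from 1.68 to 2, while those genes spanned 4.12- and 4.4-fold in BPD6. In BPD6 all 4 pairs varied less in ratio than in level. The ratio spanned 1.37-fold for the collagen I pair, whose genes spanned 3.41- and 3.6-fold, and 1.26-fold for the collagen V pair. In MC38 the ratios of the collagen IV and VI pairs spanned 1.18- and 1.31-fold, and those of the collagen I and V pairs 5.25- and 3.11-fold. The low end of the collagen I ratio was 1 library, MR 2, at 0.367, and the next lowest was 1.25. What sets the spread of these ratios was not tested.

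Col1a1 over Col1a2 was 1.46, 1.6, 1.49 and 1.44 in MC38 control tumors and 1.25, 0.367, 1.93 and 1.6 in MC38 MR tumors. A single library, MR 2, had the inverted ratio, and in the same library Col1a2 was at 715 CPM. BPD6 libraries ran from 1.76 to 2.4. Col5a1 over Col5a2 was 17.3, 7.45, 5.55 and 5.6 in MC38 control tumors and 1.2, 1.23, 1.24 and 1.26 in BPD6 control tumors, the widest gap between models of the 4 pairs. Between the control groups the exact 2-sided permutation p was 0.0286 for the collagen I and the collagen V pair, the smallest that 4 against 4 libraries allow, and 0.0571 after adjustment over the 4 pairs. For diet the lowest of 8 exact permutation p-values was 0.0571, for the collagen VI and collagen V pairs in BPD6, the smallest that 4 against 3 libraries allow, and 0.229 after adjustment.

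**Figure D3:**
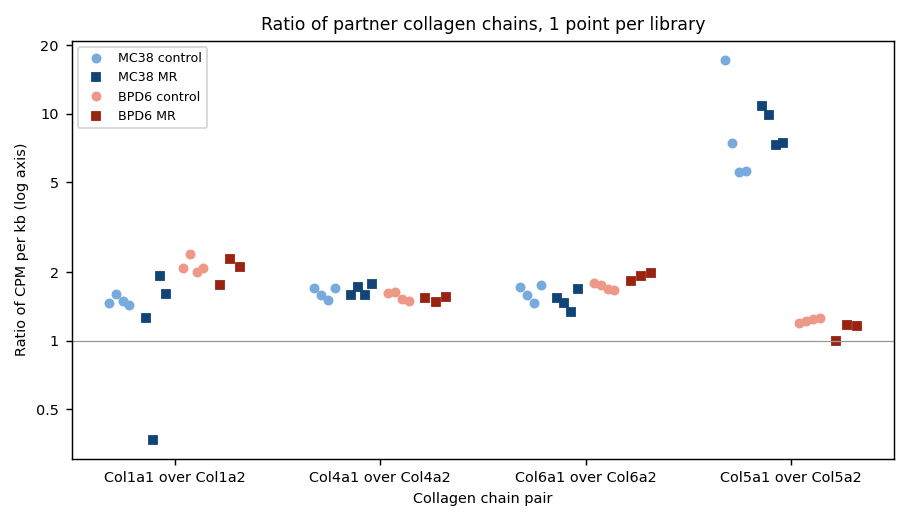
Ratio of CPM per kilobase between partner collagen chains (y axis, log scale) for 4 chain pairs (x axis), 1 point per library, colored by model and diet. The collagen IV and VI pairs lie in narrow bands in both models, the collagen I ratio falls to 0.367 in MC38 MR 2, and the collagen V ratio is 5.55 to 17.3 in MC38 and 0.999 to 1.26 in BPD6.

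Among the glycoproteins and proteoglycans, 10 of 11 were higher in BPD6 and Dcn did not pass. Sparc, a collagen-binding secreted protein, had the lowest p of the 40 genes between models. Its values were 579, 589, 703 and 594 CPM in MC38 control, 592, 811, 704 and 669 in MC38 MR, 3565, 3718, 4544 and 3721 in BPD6 control and 4641, 3710.0 and 3608 in BPD6 MR tumors. All BPD6 libraries stood above all MC38 libraries. The difference was 6.31-fold (log2 2.66 ± 0.13, adjusted p = 1.05e-09), and diet effects were 0.17 ± 0.12, adjusted p = 0.505 in MC38 and 0.043 ± 0.14, adjusted p = 0.9997 in BPD6.

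Fn1 encodes fibronectin, on which cells assemble collagen. MC38 control tumors had 1027, 934, 923 and 1015 CPM, and MR tumors 566, 618, 1158 and 631 CPM. Apart from MR 3, which was the highest of the 8, the MR libraries lay below every control. The diet effect in MC38 was -0.39 ± 0.21, adjusted p = 0.422. In BPD6 Fn1 measured 1049.9, 3648, 3198 and 2727 CPM on control and 3605, 2212 and 3422 CPM on MR diet, with control 1 far below the others. It was 2.72-fold higher in BPD6 control tumors (log2 1.45 ± 0.32, adjusted p = 0.00124), with different transcripts named in the 2 tables.

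Tnc and Thbs1 encode tenascin C and thrombospondin 1, matricellular proteins of wounds and tumors. Tnc had 20.1, 45.3, 97.7 and 37.3 CPM in MC38 control and 33.7, 48.1, 64.1 and 33.7 in MC38 MR tumors, and 529.5, 769.7, 1124 and 736 CPM on control and 1038, 729 and 897 CPM on MR diet in BPD6. Thbs1 had 57.1, 51.8, 93.4 and 91.2 CPM on control and 50.8, 64.2, 71 and 86.4 CPM on MR diet in MC38, and 439, 399, 929 and 431 CPM on control and 993, 492 and 649 CPM on MR diet in BPD6. For both, each BPD6 library exceeded each MC38 library and the diets overlapped. The model differences were 15.8-fold for Tnc (log2 3.98 ± 0.43, adjusted p = 1.69e-06) and 7.49-fold for Thbs1 (log2 2.90 ± 0.33, adjusted p = 2.62e-06). Both genes, and Postn, have different transcripts named for the 2 models. Postn, which encodes periostin of activated fibroblasts, had 27.7, 67.7, 115 and 126 CPM on control and 54.9, 70.9, 94.4 and 93.1 CPM on MR diet in MC38, and 158, 360.4, 510.0 and 303 CPM on control and 734, 357 and 286 CPM on MR diet in BPD6. Control 1 was the lowest library in both models. Postn was 3.96-fold higher in BPD6 (log2 1.99 ± 0.46, adjusted p = 0.00158), and its diet effect there was 0.48 ± 0.44, adjusted p = 0.9997.

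Lum and Bgn encode lumican and biglycan, small proteoglycans of collagen fibers. Lum measured 18.9, 28.4, 25.2 and 10.1 CPM in MC38 control and 36.8, 44, 33 and 18.1 in MC38 MR tumors, then 29.4, 40.1, 140.2 and 75 CPM on control and 131, 50.4 and 34.2 CPM on MR diet in BPD6. In MC38 3 of 4 MR libraries lay above all controls, yet MR 4 lay below 3 of them (0.68 ± 0.34, adjusted p = 0.399). Bgn measured 28.8, 66.5, 117 and 99.3 CPM on control and 43.2, 108, 110.5 and 71.7 CPM on MR diet in MC38, and 276, 463, 1157 and 326 CPM on control and 1401, 506 and 727 CPM on MR diet in BPD6, where the diet effect was 0.67 ± 0.55, adjusted p = 0.9997. Both genes were highest in BPD6 control 3 and MR 1, the libraries with keratinocyte markers. Dcn, the decorin gene, went the other way between models, at 287 ± 87.8 CPM in MC38 and 172 ± 68.3 CPM in BPD6 control tumors (SD, n = 4 each), and did not pass the test (log2 -0.74 ± 0.33, adjusted p = 0.0619). Without BPD6 control 3 and MR 1 its log2 fold change was -1.02, past the test at an adjusted p of 0.00845. Fbn1 (fibrillin), Vcan (versican) and Thbs2 were 1.95-, 3.25- and 2.2-fold higher in BPD6.

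Genes of collagen folding and crosslinking split in direction. Serpinh1 encodes the collagen chaperone HSP47 and measured 488, 792, 1059.7 and 485 CPM in MC38 control, 990.4, 820.1, 724 and 512 in MC38 MR, 2161, 1949, 1698 and 1786 in BPD6 control and 1417, 2062 and 1646 in BPD6 MR tumors. It was 2.69-fold higher in BPD6 (log2 1.43 ± 0.25, adjusted p = 0.000185). Pcolce, an enhancer of procollagen trimming, was the only one of the 40 that passed as lower in BPD6, at 449.6 to 555 against 565 to 898 CPM (log2 -0.62 ± 0.17, adjusted p = 0.00654). Lox, the lysyl oxidase gene, had 2.71, 22.7, 34.3 and 17.3 CPM in MC38 control and 9.9, 12, 24 and 8.76 in MC38 MR tumors, then 68.6, 70.0, 122 and 71.6 CPM on control and 134, 106 and 65.2 CPM on MR diet in BPD6. The MC38 control libraries spanned 12.7-fold, more than any other of the 40 genes in that group. Lox, Loxl1 and Loxl2 were 4.31-, 5.07- and 7.74-fold higher in BPD6 (log2 2.11 ± 0.54, adjusted p = 0.00345 for Lox).

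Proteases and their inhibitors held the genes of lowest p for diet in MC38. Mmp14, a membrane-bound collagenase, had 362, 389.7, 438 and 431 CPM in MC38 control and 555, 472, 499 and 425 in MC38 MR tumors. Only MR 4 lay within the control range, and the other MR libraries lay above it (0.27 ± 0.11, adjusted p = 0.318). In BPD6 it had 1042, 1192, 1227 and 1260.1 CPM on control and 1258, 1334 and 989 on MR diet (0.021 ± 0.13, adjusted p = 0.9997). Timp1, a secreted inhibitor of metalloproteinases, had 121, 121, 144 and 109 CPM on control and 204, 149, 149.6 and 134 CPM on MR diet in MC38, and 583, 339, 456 and 477 CPM on control and 519, 391 and 608 CPM on MR diet in BPD6. Control 3 and MR 4 were the only MC38 libraries to cross (0.36 ± 0.14, adjusted p = 0.312). In the authors' deposited table the adjusted p-values in MC38 were 0.193 for Mmp14, 0.209 for Timp1 and 0.192 for Col6a2.

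All 5 genes of this role, Mmp2, Mmp14, Timp1, Timp2 and Timp3, had a log2 fold change above 0 in both models, with medians of 0.34 in MC38 and 0.10 in BPD6, and none passed. Their summed level was 841 to 945 CPM in MC38 control and 1056 to 1204 CPM in MC38 MR tumors, which did not overlap. The sums of every other role overlapped between the diets in MC38. Fibrillar collagens, for example, summed to 1217 to 2068 CPM on control and 965 to 2436 CPM on MR diet. No test was run on the sums, and this role was singled out after its values were seen. Each of the 5 genes by itself overlapped between the diets in MC38. The 8.61% of all single genes without overlap there is no reference for a sum of 5 genes, and none was computed. In BPD6 the summed level of the 5 genes was 3359.9 to 4683 CPM in control and 4240.1 to 4456 CPM in MR tumors, the MR range lying inside that of the controls. Markers of some other cells also had log2 fold changes above 0 in MC38, with none past the test. Of all genes tested, 7518 of 14034 were above 0. Macrophage markers summed to 635 to 1231 and 789.6 to 2083 CPM (12 of 12 above 0), fat cell markers to 8.43 to 95.1 and 26.1 to 455 CPM (7 of 7 tested above 0), and T cell markers to 15 to 28.5 and 15.3 to 74 CPM (7 of 7 above 0). Above 0 in the other lists were 5 of 5 pan-leukocyte, 5 of 6 epithelial, 7 of 11 endothelial and 6 of 9 pericyte markers. So were 6 of 9 skeletal muscle, 2 of 4 keratinocyte and 0 of 2 melanocyte markers. The part of other cells in the protease and inhibitor values was not tested. Between models all 5 protease and inhibitor genes passed as higher in BPD6. Mmp2, a gelatinase, and Timp3, a matrix-bound inhibitor, had the widest differences of the 40, 35.6-fold at 15 to 40.4 against 631 to 1168 CPM and 31-fold at 7.1 to 35.1 against 309.5 to 793 CPM. Mmp14 was 2.91-fold (log2 1.54 ± 0.12, adjusted p = 5.22e-08) and Timp1 3.74-fold higher (log2 1.90 ± 0.18, adjusted p = 5.84e-07).

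All 6 fibroblast and contractile markers were higher in BPD6, and none passed the test for diet. Acta2, the smooth muscle actin of myofibroblasts, had 8.08, 13.5, 18.3 and 17.1 CPM in MC38 control and 12.4, 14.4, 31.2 and 10.2 in MC38 MR tumors, then 62.1, 66.7, 122 and 41.9 CPM on control and 126, 102 and 59.3 CPM on MR diet in BPD6. BPD6 control 4, with the most skeletal muscle RNA, was the lowest BPD6 library. Acta2 was 5.14-fold higher in BPD6 (log2 2.36 ± 0.41, adjusted p = 0.000171), and its count carries the doubt that actin genes share near-identical coding sequence. Pdgfrb, the receptor of fibroblasts and pericytes, had 39.3, 57.2, 51.4 and 50.7 CPM on control and 49.5, 51.8, 88.9 and 34.5 CPM on MR diet in MC38, and 145, 229.9, 150.5 and 349.6 CPM on control and 174, 233 and 171 CPM on MR diet in BPD6, a 4.4-fold model difference (log2 2.14 ± 0.31, adjusted p = 2.88e-05).

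Pdgfra, a receptor that marks many fibroblasts, had 7.74, 8.11, 5.19 and 9.04 CPM in MC38 control and 3.9, 5.69, 8.32 and 6.27 in MC38 MR tumors, then 61.9, 69, 113 and 121 CPM on control and 102, 74 and 84.8 CPM on MR diet in BPD6. The MC38 table names a short noncoding transcript of 1561 bases for it and the BPD6 table one of 6549 bases, so its 12.2-fold difference may not compare the same counts. Tagln, Fap and Thy1, markers of contractile and activated fibroblasts, were 4.17-, 10.7- and 2.03-fold higher in BPD6. Thy1 did not pass without BPD6 control 3 or without MC38 control 1. With only the 31 genes that have the same transcript in both tables, 27 were higher in BPD6 and 1 lower.

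Levels were also ranked between genes per kilobase of transcript, for the 38 of 40 with a known length in both tables. In MC38 control tumors the order was led by Pcolce (469 CPM per kilobase), Serpinh1 (319), Sparc (291) and Col6a1 (246). In BPD6 it was led by Sparc (1838 CPM per kilobase), Serpinh1 (892), Col3a1 (708) and Timp1 (525). Col1a1 stood at 58.2 CPM per kilobase in MC38 and 429.9 in BPD6. Among the 4 leading genes, Serpinh1 and Sparc were common to both models.

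Libraries of 1 group spread widely in these genes. The median ratio of the highest to the lowest library was 1.71 in MC38 control, 2.09 in MC38 MR, 2.22 in BPD6 control and 1.63 in BPD6 MR tumors. Over all 14257 genes it was 1.32, 1.53, 1.43 and 1.29. MC38 control 1 was the lowest MC38 library for 15 of the 40 genes (37.5%, against 14.9% of all genes), Col1a1, Col1a2, Sparc, Postn, Lox and Acta2 among them. MC38 MR 1 was the lowest for 13 others (32.5%, nearer to its 24.4% of all genes), which include Col3a1, Col4a1, Col6a1, Col6a2, Col6a3 and Fn1. BPD6 control 1 was the lowest BPD6 library for 21 genes (52.5%, against 18% of all genes).

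BPD6 control 3 and MR 1 were the highest BPD6 libraries for 11 genes each (27.5%, against 10.5% and 14.9% of all genes). Control 3 led for Col1a1, Col1a2, Col3a1, Col5a1, Col5a2, Col12a1, Lum and Tnc, and MR 1 for Sparc, Postn, Dcn, Bgn, Thbs1, Lox, Acta2 and Thy1. They are the 2 libraries with keratinocyte markers, and fibrillar collagens summed to 15128 and 12693 CPM in them against 6943 to 9897 CPM in the other 5. Of the keratinocyte list, Krt5 reached 142.6 and 388 CPM in them, and it was at 0 in at least 1 other control library. The part of skin RNA in the result was not tested. Without both libraries together the model difference stayed past the test for the same number of genes, 36 higher in BPD6, with Dcn joining Pcolce as lower. The log2 fold change went from 2.88 to 2.31 for Col1a1, from 2.40 to 1.76 for Col1a2, from 3.64 to 2.70 for Col12a1 and from 2.84 to 2.19 for Bgn. For diet in BPD6, 0 of 40 passed without them, with a median log2 fold change of 0.054. BPD6 control 4 led for 10 genes (25%, against 17.2% of all genes), among them Col6a1, Col6a2, Col6a3, Mmp2, Pdgfra and Pdgfrb.

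**Figure D4:**
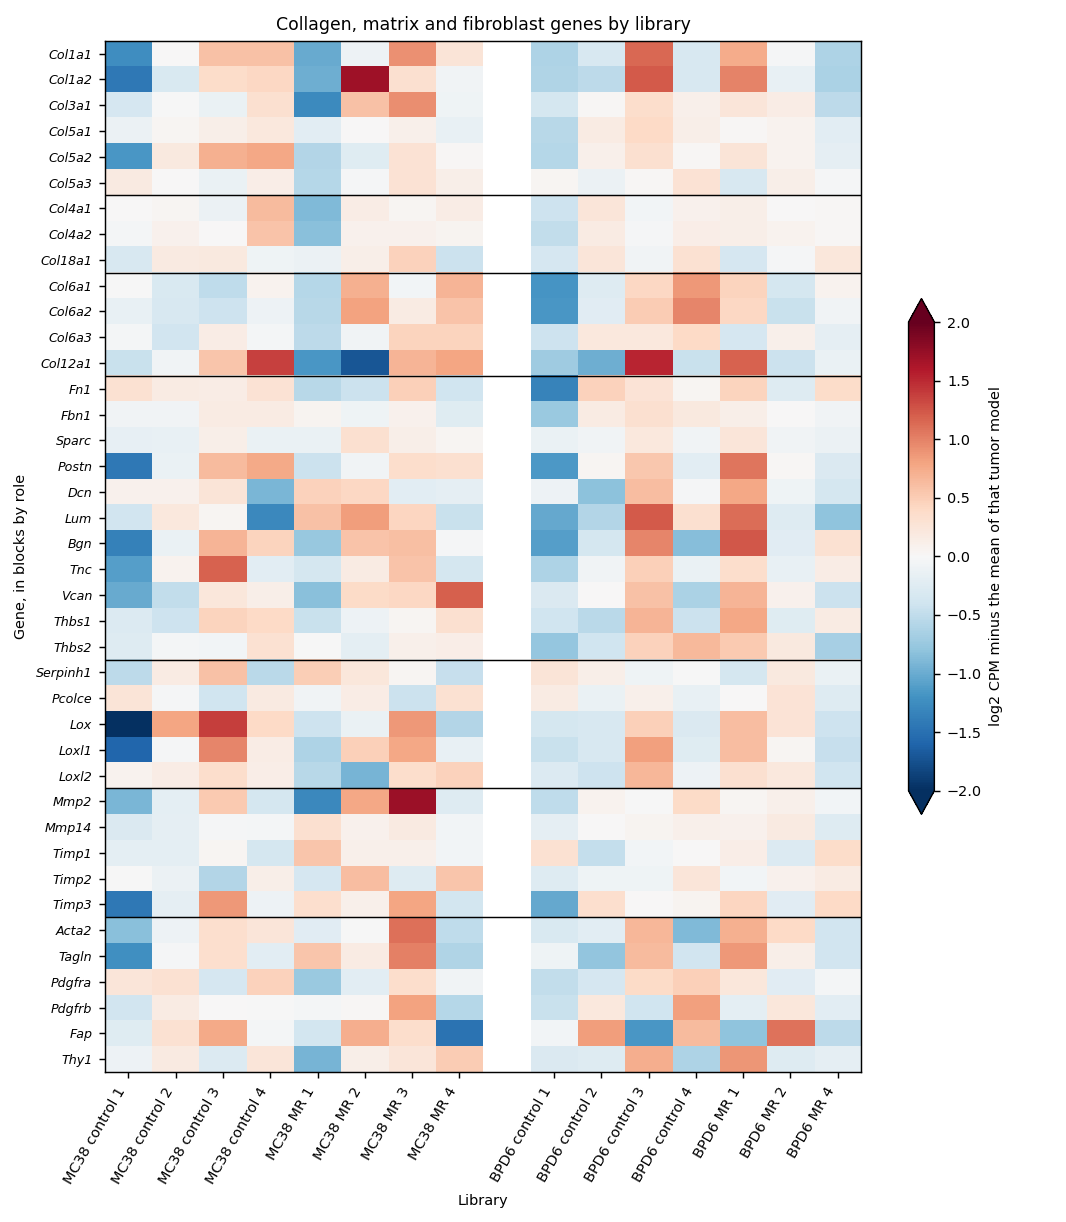
Log2 CPM of each of the 40 genes (rows, in blocks by role) in each library (columns), minus the gene's mean over the libraries of that tumor model; red is above and blue below that mean, and the scale is cut at -2 and 2. MC38 control 1, MC38 MR 1 and BPD6 control 1 are the lowest libraries of their model for 15, 13 and 21 genes, and BPD6 control 3 and MR 1 share red cells for Col1a1, Col1a2, Lum and Bgn.

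**Figure D5:**
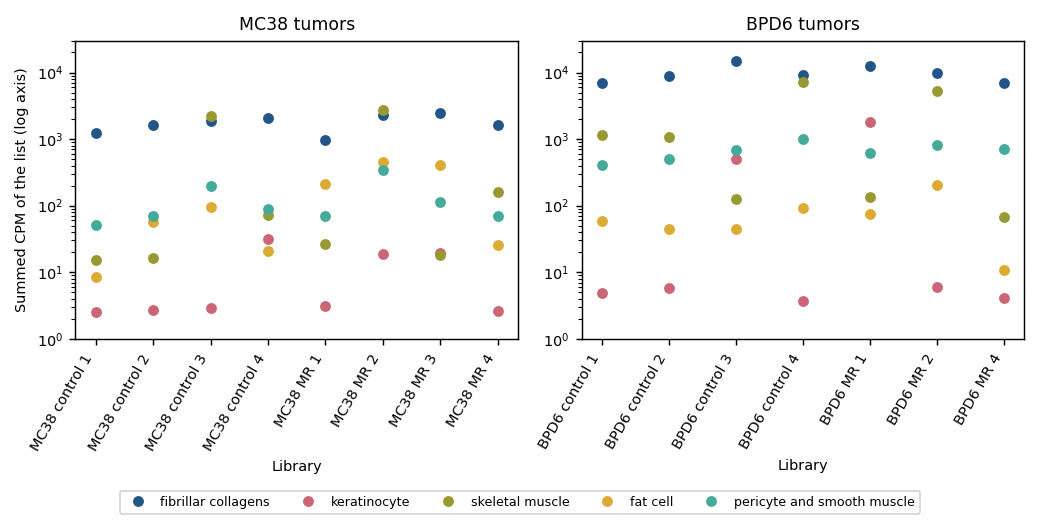
Summed CPM (y axis, log scale) of the 6 fibrillar collagens and of 4 cell marker lists in each library (x axis) of MC38 (left) and BPD6 (right). Keratinocyte markers reach 499.6 CPM and 1786 CPM in BPD6 control 3 and MR 1, where the fibrillar collagens are also at their highest, and skeletal muscle markers run from 15.3 to 2738 CPM in MC38 and from 67.5 to 7256 CPM in BPD6.

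Further genes of the matrix pathway were counted from lists. None of these lists had a gene past the test for diet in either model. Their counts between models stand against 32.6% of all genes higher in BPD6 and 30.7% lower. Between models, 12 of 14 TGF-beta ligands, receptors, Smads and latent binding proteins were higher in BPD6 and none lower, led by Eng, a TGF-beta co-receptor of endothelium (2.88 ± 0.15, adjusted p = 2.00e-09), and Ltbp1, which stores the latent ligand in matrix (1.85 ± 0.15, adjusted p = 1.38e-07). Of 8 listed TGF-beta target genes 7 were higher, among them Tgfbi (2.70 ± 0.27, adjusted p = 9.35e-07). Integrin and other matrix receptors were higher for 15 of 18, with Itga5, the fibronectin receptor chain, at 2.87 ± 0.10, adjusted p = 2.10e-10, and Itga6, a laminin receptor chain, at 3.45 ± 0.21, adjusted p = 8.46e-09. PDGF and FGF ligands were higher for 5 of 6 tested, Pdgfc at 2.54 ± 0.24, adjusted p = 4.67e-07.

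Laminins, nidogens and other basement membrane genes split, with 8 of 14 higher in BPD6 and 3 lower. Nid1 was at 3.69 ± 0.25, adjusted p = 1.64e-08, and Agrn, the agrin gene, at -4.45 ± 0.28, adjusted p = 1.03e-08. Collagen hydroxylases and secretion genes were higher for 8 of 14 and lower for 2, with Plod1 at 1.82 ± 0.12, adjusted p = 1.80e-08 and Plod3 at -0.65 ± 0.086, adjusted p = 1.34e-05, both lysyl hydroxylases. Of 11 further collagens 4 were higher and 1 lower, a share of higher genes near the 32.6% of all genes. Of 26 further fibroblast genes 16 were higher and 2 lower. The fibroblast and vessel marker Cd34 was lower (-3.80 ± 0.20, adjusted p = 2.00e-09) and Vim, the vimentin gene of mesenchymal cells, higher (1.62 ± 0.19, adjusted p = 4.09e-06). For diet in MC38, 7 of the 26 further fibroblast genes reached an unadjusted p under 0.05, against 14.1% of all genes. Of the 26, 18 were above 0 and 8 below, with a median log2 fold change of 0.34. The lowest p was that of Aebp1, a collagen-binding protein (-0.29 ± 0.089, adjusted p = 0.259), followed by Ogn (-0.98 ± 0.36, adjusted p = 0.298) and Vim (0.40 ± 0.15, adjusted p = 0.298). In BPD6 0 of the 26 reached it, against 1.85%.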

How the data were processed

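The authors deposited a table per tumor model with estimated counts per gene and library, each row with 1 symbol and 1 RefSeq transcript. The submitters' processing notes name GRCm38 and mm10. No source used here names the aligner or counter. All values are multiples of 0.5, and 46.8% (MC38) and 46.6% (BPD6) are not whole. They were rounded. The deposited log2 fold changes and p-values are the authors' own comparison, per the file headers. Left aside were 27 further columns with values per library. The prefix of the BPD6 columns is not that of the labels, and those for MR bear the numbers 1, 2 and 4, so they were matched by diet group alone. BPD6 numbers in the text are column numbers.

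Diets were compared within each table with edgeR 4.0.16 (quasi-likelihood, filterByExpr, TMM, Benjamini-Hochberg over all genes tested, threshold 0.05, R 4.3.3), and models in 1 fit with their interaction over genes of both tables. Log2 fold changes are ± the standard error. CPM use TMM factors over all 15 libraries, and lengths are of the named transcript in GENCODE. Gene coordinates are RefSeq's on GRCm38.p6. DESeq2 1.42.0, limma-voom 3.58.1, other size factors, no filter and each library left out were alternatives. The fits were tested on simulated data. The chi-square per degree of freedom between replicates was at least 12.8. Values per library are given for 14 fixed genes and for the 5 of lowest p in each diet comparison. The members and lists were chosen with earlier results of these data known.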

Additional observations from a re-analysis of the deposited data

Results flagged for a closer look

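In each of the 3 groups with 4 libraries, a library was noted where its gap to the nearest other, divided by the group's range, passed Dixon's 95% critical value for groups of 4. Of 120 groups checked (40 genes in 3 groups), 12 were noted. The checks share libraries and are not independent, so this number cannot be set against a rate expected by chance. BPD6 control 3 accounts for 7, each time as the highest library. Col1a1 was at 5065 CPM there (others 1488 to 1826), Col1a2 at 2283 (644 to 788) and Col12a1 at 710.0 (125 to 180.4). Sparc was at 4544 CPM (3565 to 3721), Thbs1 at 929 (399 to 439), Lox at 122 (68.6 to 71.6) and Loxl1 at 96.3 (39.9 to 45.8). Keratinocyte markers summed to 499.6 CPM in that library, and their part in these values was not tested. In MC38, MR 1 was the lowest for Col4a1 at 137 CPM (others 259 to 282) and for its neighbor Col4a2 at 83.9 CPM (155 to 159). The highest values were Fn1 in MR 3 at 1158 CPM (566 to 631), Col4a1 in control 4 at 391 CPM (232 to 259) and Sparc in control 3 at 703 CPM (579 to 594).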

How the results depend on the processing

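For diet, 0 of the 40 genes passed under each alternative run in MC38 and BPD6, and 0 for the difference between models. DESeq2 called 396 genes of all in MC38, 1 in BPD6 and 7 in the interaction, and the cause was not tested. Leaving out 1 library at a time moved the median log2 fold change of the 40 genes from -0.097 to 0.21 in MC38, from -0.066 to 0.17 in BPD6 and from -0.13 to 0.14 in the interaction. Of the values of the 20 genes given per library, 25 of 260 in MC38, 30 of 240 in BPD6 and 17 of 412 in the interaction changed sign, none of them past the test. Between models the median ran from 1.81 to 2.21 with 1 library left out, genes higher in BPD6 from 35 to 36 and genes lower from 1 to 3. Thy1 was the gene lost, without BPD6 control 3 or without MC38 control 1. The genes lower in BPD6 were 2 under DESeq2 (Dcn and Pcolce) and 2 without BPD6 control 3 and MR 1 together, an alternative chosen after seeing the data. They were also 2 without MC38 control 4, BPD6 control 3 or BPD6 MR 1 (Dcn and Pcolce), and 3 without BPD6 control 4 (Col6a1, Col6a2 and Pcolce). In MC38, the deviations of same-numbered libraries of the 2 diets correlated at -0.059, -0.35, -0.17 and 0.40. Pairs of different number were not computed for reference, so these values cannot settle whether libraries were paired. With the replicate number as a block 0 genes passed, with a median of 0.076 for the 40. In BPD6 the MR columns were matched to the diet group alone, since their numbers differ from those of the labels, and were not paired with controls. With 3 or 4 libraries a group, the width of the intervals limits what diet changes can be seen.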
